A study of Homo sapiens with 2 samples.

Results

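The NRF2 pathway genes described here are 9 genes listed by name, a list drawn up with earlier results of these arrays known. They are NFE2L2, which encodes the transcription factor NRF2, its inhibitor KEAP1, and 7 of its classical target genes, TXNRD1, SRXN1, GCLC, GCLM, HMOX1, NQO1 and AKR1B10. All probes that are not controls and whose RefSeq transcript belongs to one of these genes were taken, which gave 10 probes in 28 spots for 9 of the 23752 genes and unnamed transcripts measured. The cells were HepG2, which the study calls a human hepatoma line, treated for 24 h with DMSO (1 per mille) as the control or with hawk tea extract (HTE). The study's title calls this herbal tea caffeine-free, and its measurements found little caffeine in it. The sample labels give an HTE dose of 200 μg/mL, whereas the name of the HTE array carries the number 300, which is also the dose in the study's text. The study reports a measured loss of cell viability at the dose it used, the size of which is not reported here. That this loss is slight and tolerable is the study's own judgement. Loss of viability was not measured on these arrays, and its part in the results was not tested. Total RNA of each culture was hybridised to 1 one-colour (Cy3) Agilent array, so there is 1 array per condition, no test between the conditions was possible, and array and treatment cannot be told apart.

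The values are the processed signals of the scanner software, which are background-subtracted intensities in arbitrary units. For the comparison, the log2 signal of each spot was set relative to the 75th percentile of its own array, which lay at 4020.0 on the DMSO array and 3570.3 on the HTE array, and the log2 ratio is the HTE level minus the DMSO level on this scale. Between 56.6% (HTE) and 60.6% (DMSO) of the spots were well above background, the flag by which the software marks a reliable signal, and no spot was saturated. Signals of different probes cannot be set against each other, because each probe binds its target with its own strength. All 9 markers of hepatocytes were well above background on both arrays, from HNF4A (log2 level of -2.19 in DMSO) to APOA1 (5.37). Of 10 markers of fibroblasts, endothelium, leukocytes and basal epithelium, 6 passed this flag on the DMSO array (log2 levels of -5.31 to -0.60). On the HTE array 5 passed it (-5.10 to -0.64). COL1A1, PECAM1, VWF, PTPRC and CD14 passed it on both arrays, COL3A1 on the DMSO array only, and CD3E, CDH5, COL1A2 and KRT5 on neither. The probes of PTPRC disagreed, with a log2 ratio of 0.14 for the brightest and -0.88 for another that passed on both arrays. PECAM1 and CD14 were lower on the HTE array (log2 ratios of -1.82 and -1.77). What part these markers have in the results was not tested.

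NRF2 is a basic leucine zipper factor that KEAP1 holds in the cytoplasm and presents to a CUL3-RBX1 ubiquitin ligase for degradation. Electrophiles and oxidants modify cysteines of KEAP1, upon which newly made NRF2 escapes degradation, enters the nucleus, pairs with a small MAF protein and binds the antioxidant response element in its target genes, where BACH1 acts as a competing repressor. Since NRF2 is controlled mainly through the stability of the protein, the messenger RNA of NFE2L2 does not report the activity of the factor. In hepatocytes the targets supply glutathione, thioredoxin and NADPH, and detoxify quinones, carbonyls and free heme.

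The promoter windows of these genes were read for the core of the antioxidant response element, because it is the sequence through which NRF2 acts. The letters searched were TGACNNNGC, or GCNNNGTCA for the opposite strand, in the RefSeq promoter table of GRCh38.p14, which spans 250 bases before to 50 bases after each start. Of the 9 genes 7 had a promoter in that table (HMOX1 and AKR1B10 did not), and 3 of the 7 held the motif, against 16.1% of all 27305 genes in the table. Counted by promoter, 4 of the 10 promoters of these genes held it, against 13.3% of all 35116 promoters. The windows that hold it are shown 5′ to 3′ on the strand of the gene, with the match in capitals and its first base counted back from the start of the transcript.
GCLM, chr1:93909445-93909474, minus strand, 34 bases before the start: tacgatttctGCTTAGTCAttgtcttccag
TXNRD1, upstream promoter, chr12:104215670-104215699, plus strand, 99 bases before the start: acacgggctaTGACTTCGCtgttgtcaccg
TXNRD1, upstream promoter, chr12:104215761-104215790, plus strand, 8 bases before the start: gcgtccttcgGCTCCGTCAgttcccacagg
TXNRD1, downstream promoter, chr12:104286920-104286949, plus strand, 102 bases before the start: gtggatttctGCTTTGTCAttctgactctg
KEAP1, downstream promoter, chr19:10502806-10502835, minus strand, 54 bases before the start: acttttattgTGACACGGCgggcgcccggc
KEAP1, downstream promoter, chr19:10502783-10502812, minus strand, 31 bases before the start: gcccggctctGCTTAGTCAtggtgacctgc
No other motif was searched, and a match describes these letters and not a bound site. The windows of NFE2L2, GCLC, NQO1 and SRXN1 held no match, which says nothing of elements further upstream.

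Of the 9 genes, 6 were higher on the HTE array and 3 were lower (5 higher with scaling to the median, without scaling or with normexp background correction, and none with spike-in scaling). Among all genes measured 45.7% were higher, a share that counts genes on a bound of 0 as not higher, and among the 21000 genes measured on both arrays 10386 were. The median log2 ratio of the 9 genes was 0.27, against -0.0049 over those 21000 genes and -0.02 over the 9169 genes with a mean log2 signal above 0, a range that holds all of the 9 but TXNRD1. TXNRD1 was the only one past 2-fold, the cutoff the study used, and none was at least 2-fold lower. Of all genes 5.25% were at least 2-fold higher and 3.03% at least 2-fold lower, so that 1 of 9 is not a count from which anything can be read. Of all genes past 2-fold 63.4% were higher, against 42.2% without scaling and 0.61% with spike-in scaling. The 3 lower genes were NFE2L2, KEAP1 and GCLM. The higher genes were, in descending order of log2 ratio, TXNRD1 (1.05), AKR1B10 (0.50), SRXN1 (0.44), GCLC (0.30), HMOX1 (0.27) and NQO1 (0.02).

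**Figure D1:**
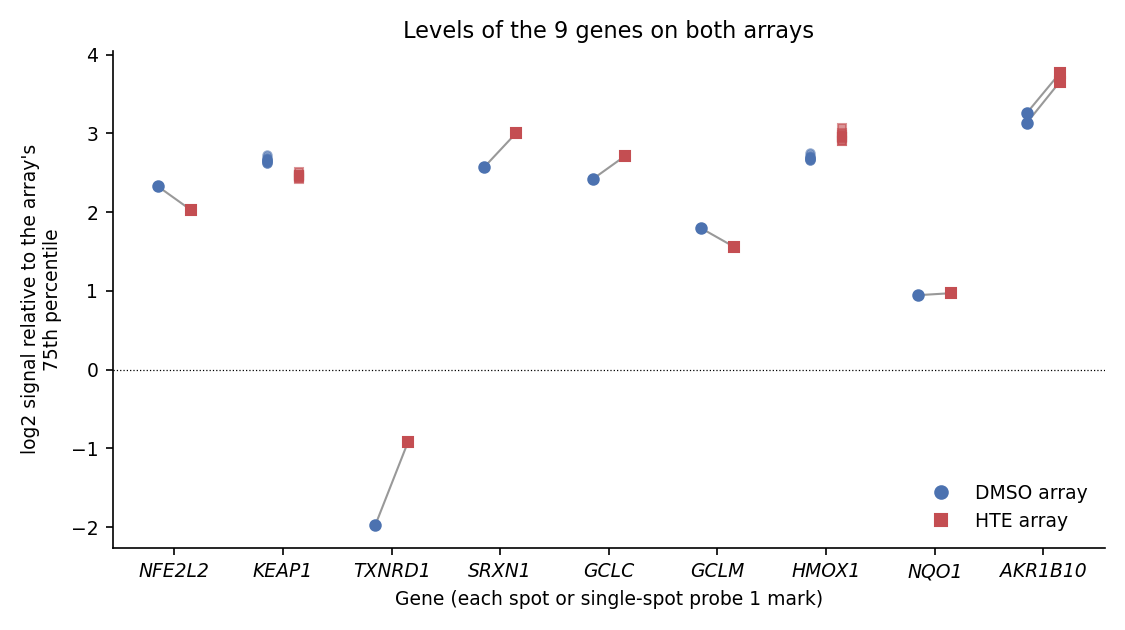
Log2 signal of each gene relative to the 75th percentile of its array (y axis) on the DMSO array (circles) and the HTE array (squares), with 1 mark per spot and lines joining the same single-spot probe. TXNRD1 lies below 0 on both arrays and has the steepest line (log2 ratio of 1.05), and the lines of NFE2L2 and GCLM slope down.

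The error that can be given is that of the arrays. For a single spot the software's own error model gave 0.20 on the log2 ratio of NFE2L2, NQO1, GCLC, GCLM, SRXN1 and AKR1B10, and 0.21 on that of TXNRD1. Replicate spots of a probe varied less, with a median SD of the log2 ratio of 0.0446 among 434 replicated probes above the 75th percentile and 0.0525 among 142 probes less than 2 log2 units below it. Different probes of 1 gene differed more, with a median SD of 0.16 over 3759 genes. By the software's error, the ratio of NQO1 is not distinguishable from 0, those of NFE2L2, GCLC and GCLM exceed 1 such error but not 2, and those of AKR1B10, SRXN1 and TXNRD1 exceed 2. These grades hold for scaling to the 75th percentile. With scaling to the median, SRXN1 (0.36) did not exceed 2 such errors. Without scaling, SRXN1 (0.27) and AKR1B10 (0.33) did not exceed 2, GCLC (0.12) did not exceed 1, and NFE2L2 (-0.47) did exceed 2. None of these errors includes the variation between cultures.

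**Figure D2:**
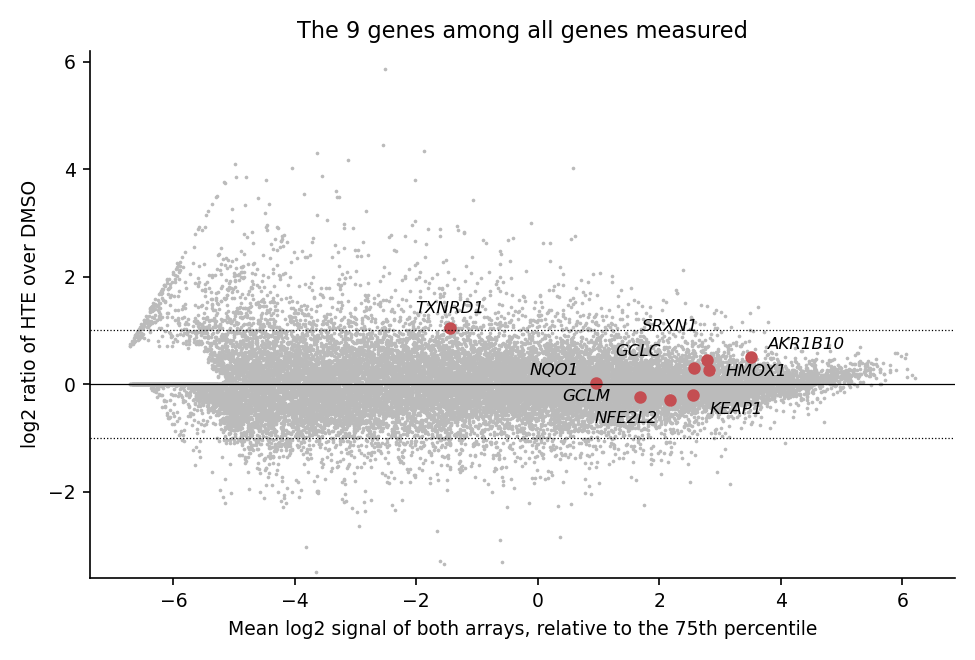
Log2 ratio of HTE over DMSO (y axis) against the mean log2 signal of both arrays (x axis) for all 23752 genes and unnamed transcripts (grey) and the 9 genes (red), with dotted lines at 2-fold. TXNRD1 lies at the upper dotted line, and the others of the 9 genes lie between the dotted lines. Grey marks lie above TXNRD1, whose ratio is higher than that of 95.2% of all genes.

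The transcription factor and its inhibitor were both lower on the HTE array. NFE2L2 had a processed signal of 20147 on the DMSO array and 14575 on the HTE array, a log2 ratio of -0.30 (1.23-fold lower). KEAP1 was printed in 10 spots, of which 1 was flagged as an outlier on the HTE array. Its signal ran from 24684 to 26457 (median 25301) over the 10 DMSO spots and from 19171 to 20233 (median 19607) over the 9 usable HTE spots. The spots of the arrays did not overlap, and all 9 spot pairs were lower, with a log2 ratio of -0.20 ± 0.03 (SD over 9 spots of the same 2 arrays). Spots of 1 array measure the same RNA and are not replicates of the treatment. The difference between the ratios of NFE2L2 and KEAP1 was -0.10, which is within the software's error of a single spot. The relatives of NFE2L2 gave log2 ratios of 0.06 for NFE2L1, which encodes a factor of proteasome and heme homeostasis, and -0.17 for NFE2L3.

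The partners of NRF2 include the gene with the highest ratio of the pathway. Of 11 regulators and partners, all measured, 7 were higher and 4 lower, with a median log2 ratio of 0.34. At least 2-fold higher were 3, of which 2 were measured on both arrays. Of all genes measured 45.7% were higher and 5.25% at least 2-fold higher, and no count of a role was tested against these shares. MAFF, 1 of the small MAF proteins that pair with NRF2, went furthest, from a signal of 2448 to 2697 (median 2552) over 9 usable DMSO spots to 5619 to 6076 (median 5793) over 10 HTE spots. These ranges lie far apart, and the log2 ratio was 1.36 ± 0.05 (SD over 9 spots). The other small MAF genes, named here after their values had been seen, were also higher, MAFG with 0.61 and MAFK with 0.62, and a dimmer probe of MAFG gave 0.99. SQSTM1, which encodes the autophagy receptor p62 that binds KEAP1, had a signal of 21580 on the DMSO array and 39693 on the HTE array, a log2 ratio of 1.05 (2.07-fold). The repressor gene BACH1 was at 0.34, and BACH2, a relative of BACH1, was well above background on the HTE array only and was at least 2.09-fold higher there (a log2 bound of 1.06, which was 0.61 with normexp background correction). The lowest of the group was BTRC (-0.36), which encodes a substrate receptor of a KEAP1-independent ligase. The ligase subunits that work with KEAP1 were at -0.26 for CUL3 with its brighter probe and -0.12 for RBX1. The dimmer probe of CUL3 went the other way, with a log2 ratio of 1.02 (2.03-fold). It was well above background on the HTE array only, and the software's error on this ratio was 0.47.

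**Figure D3:**
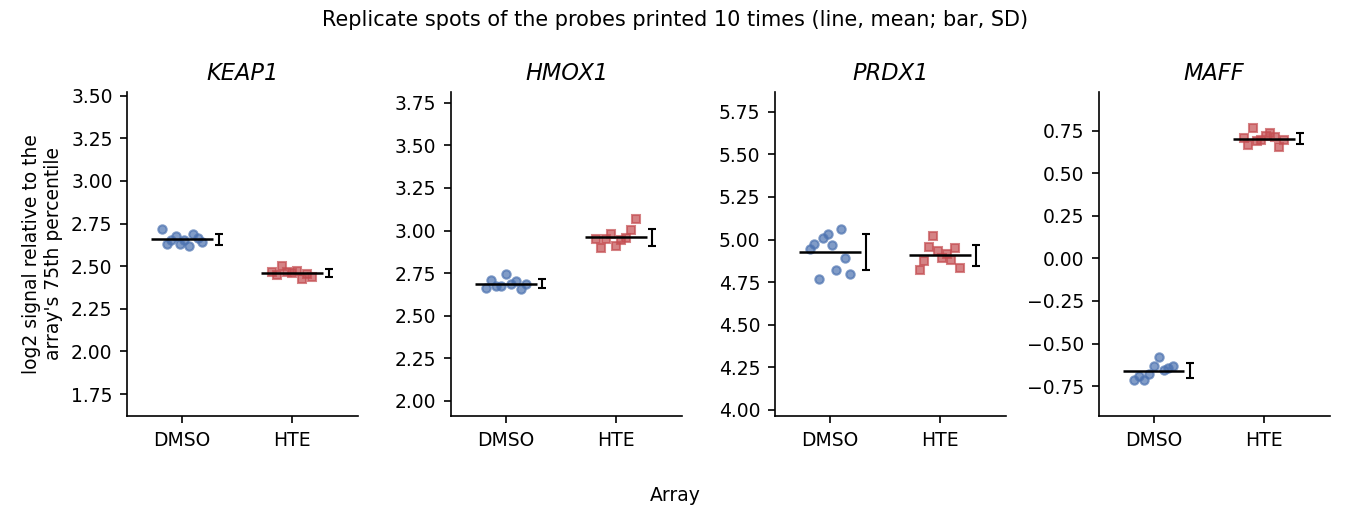
Log2 signal relative to the 75th percentile of each array (y axis, 1.9 log2 units high in each panel) for the usable spots of the 4 probes of the pathway printed 10 times, with the mean as a line and the SD over spots as a bar. The spots of KEAP1 lie lower on the HTE array, those of HMOX1 and MAFF higher, and those of PRDX1 overlap.

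Of the thioredoxin branch, the reductase and the sulfiredoxin were higher. TXNRD1 encodes cytosolic thioredoxin reductase, the selenoprotein that keeps thioredoxin reduced with NADPH. Its probe gave a signal of 1021 on the DMSO array and 1881 on the HTE array, a log2 ratio of 1.05 (2.07-fold), higher than that of 95.2% of the genes measured. The probe was the only one for the gene and is assigned to 1 of its RefSeq transcripts, and whether it binds the others is not given in the sources used here. The 2-fold call depended on the processing, since the log2 ratio was 0.998 with quantile normalization, 0.97 with normexp background correction or scaling to the median and 0.88 without scaling. The paralogs of this enzyme gave log2 ratios of 0.21 for TXNRD2, which encodes the mitochondrial form, and -0.25 for TXNRD3. SRXN1 encodes sulfiredoxin, which restores over-oxidised peroxiredoxins. Its signal was 23811 on the DMSO array and 28740 on the HTE array, a log2 ratio of 0.44 (1.36-fold).

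The other genes listed for the thioredoxin system were closer to 0. TXN, the gene of thioredoxin itself, had a log2 ratio of 0.12. PRDX6 was at 0.14 with its brighter probe and -0.03 with its dimmer probe. PRDX1, a peroxiredoxin printed in 10 spots, had signals from 109492 to 134384 (median 124670) on the DMSO array and from 100937 to 115760 (median 106850) on the HTE array. After scaling its spots overlapped between the arrays, 5 of the 10 spot pairs were higher and 5 lower, and the log2 ratio was -0.02 ± 0.12 (SD over 10 spots). The ratio of TXNRD1 exceeded that of TXN by 0.93, and that of SRXN1 exceeded that of PRDX1 by 0.46.

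The genes of glutamate-cysteine ligase, the enzyme of the rate-limiting step of glutathione synthesis, went in opposite directions. GCLC, which encodes the catalytic subunit, had a signal of 21469 on the DMSO array and 23411 on the HTE array, a log2 ratio of 0.30 (1.23-fold). GCLM, which encodes the modifier subunit that raises the affinity of the enzyme for glutamate, had 13945 and 10529, a log2 ratio of -0.23 (1.18-fold lower). The difference between the 2 ratios was 0.53. Each rests on 1 spot per array, and neither ratio exceeds 2 times its software error of 0.20. GCLM was the only one of the 7 targets that was lower, and 1 of the 3 genes whose promoter window holds the motif shown above, beside KEAP1 (lower) and TXNRD1 (higher).

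Of 8 further genes of glutathione supply and use 7 were measured, 6 of which were higher, with a median log2 ratio of 0.16. Among all genes 45.7% were higher. SLC3A2 encodes the heavy chain of several amino acid transporters and was the only one past 2-fold, with a signal of 9839 on the DMSO array, 18897 on the HTE array and a log2 ratio of 1.11 (2.16-fold). SLC7A11, named after its value had been seen because its product forms the cystine importer with that of SLC3A2, had 16931 and 29899, a log2 ratio of 0.99 (1.99-fold). Both genes are also targets of ATF4, a factor of the amino acid response. GSS, which encodes the enzyme that completes glutathione, was the only one lower (-0.19), and GSR, the gene of glutathione reductase, was at 0.04.

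HMOX1 encodes heme oxygenase, which opens free heme to biliverdin, carbon monoxide and iron. Of its 10 spots, 1 was flagged as an outlier on both arrays, and the other 9 had signals from 25363 to 26927 (median 25841) on the DMSO array and from 26644 to 29933 (median 27603) on the HTE array. These unscaled signals overlapped, whereas the scaled log2 levels did not, with 2.66 to 2.74 on the DMSO array and 2.90 to 3.07 on the HTE array. All 9 spot pairs were higher after scaling, and the log2 ratio was 0.27 ± 0.07 (SD over 9 spots, 1.21-fold), of which 0.10 was left without scaling. HMOX2, the gene of the constitutive isoenzyme, was at 0.07. Of 7 other genes of heme and iron handling 4 were higher and 3 lower, none past 2-fold, with a median log2 ratio of 0.14. Among all genes 45.7% were higher. FTL, the gene of the ferritin light chain, was highest (0.39), although another of its probes gave -0.02, and its brightest probe was left out because it was flagged as an outlier on the DMSO array. SLC48A1, which encodes a heme transporter, was lowest (-0.59), and its dimmer probe gave 0.02.

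NQO1 encodes the NADPH quinone reductase that is commonly used as a reporter of NRF2 activity and also responds to the aryl hydrocarbon receptor. Its signal was 7740 on the DMSO array and 6993 on the HTE array, a log2 ratio of 0.02 after scaling. The sign was not stable, since the ratio was -0.06 with scaling to the median, -0.03 with normexp background correction and -0.15 without scaling. The paralog NQO2 was at -0.23. AKR1B10 encodes an aldo-keto reductase of retinal and other carbonyls that is often abundant in liver tumours. It was the only one of the 9 genes with several probes, and both gave about the same ratio. The brighter probe had a signal of 38570 on the DMSO array and 48421 on the HTE array (log2 ratio of 0.50, 1.41-fold), and the other had 35355 and 44854 (0.51). Its relatives AKR1B1 and AKR1B15 were at 0.35 and 0.66. AKR1B15 is a close copy of AKR1B10, and to what extent the probes of these genes bind both transcripts is not given in the sources used here.

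The counts of this paragraph stand beside 45.7% of all genes higher and 5.25% at least 2-fold higher. Of 12 other enzymes of carbonyl, quinone and xenobiotic metabolism 11 were measured, and 10 were higher, with a median log2 ratio of 0.21 and none past 2-fold. The highest was CBR3 (0.92), the gene of a carbonyl reductase, with a signal of 207 on the DMSO array and 347 on the HTE array. ALDH3A1, the gene of an aldehyde dehydrogenase, was named after its values had been seen because its probes disagreed. Its brighter probe gave signals of 586 and 601 (0.21), and its dimmer probe, well above background on both arrays, gave 119.8 and 268, a log2 ratio of 1.33 (2.52-fold). The only gene lower was UGT1A6 (-0.23, and -0.34 with its dimmer probe), a glucuronosyltransferase gene that shares exons with the other genes of its locus. Of the 6 genes of NADPH supply 4 were higher, with a median log2 ratio of 0.29. ME1, the gene of cytosolic malic enzyme, had a signal of 186 on the DMSO array and 346 on the HTE array, a log2 ratio of 1.07 (2.09-fold). Of 4 genes of conjugate export 3 were higher, with ABCC2, which encodes the canalicular export pump of conjugates, at 0.58. ABCC5 was lowest with its brightest probe (-0.29), while its other probes both gave 0.65.

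**Figure D4:**
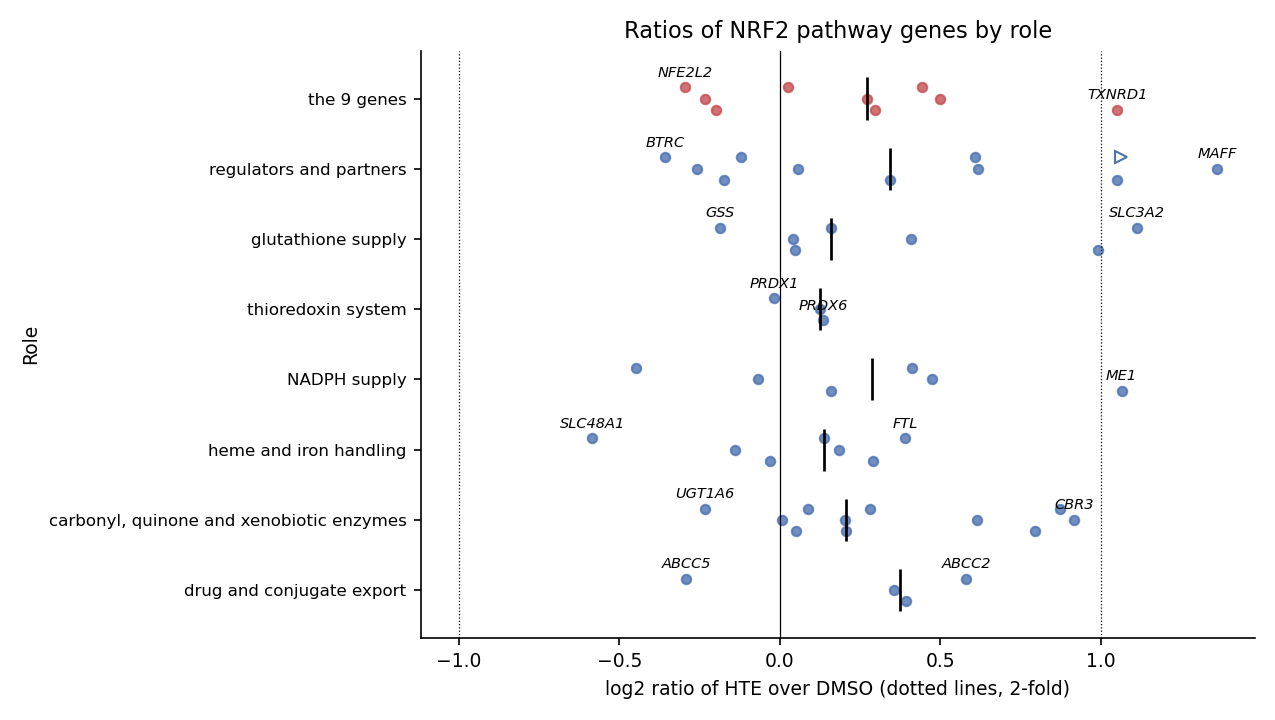
Log2 ratio of HTE over DMSO (x axis) of the 9 genes (red) and of 49 other NRF2 pathway genes (blue) by role, with 1 mark per gene, the median of each role as a bar, dotted lines at 2-fold, and an open triangle for BACH2, whose value is a lower bound. Genes at the ends of the roles are named in part, and MAFF (1.36) is the highest of all.

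Over the 7 roles, 36 of the 49 measured genes of the wider pathway were higher and 13 lower, with a median log2 ratio of 0.18. This stands beside 45.7% of all genes higher and 49.5% of the 21000 genes measured on both arrays. The hepatocyte markers, a list of another kind, had 7 of 9 higher, with a median of 0.13, and of 6 measured markers of other cell types 1 was higher. Of the 49 genes, MAFF, SQSTM1, SLC3A2, ME1 and, as a lower bound, BACH2 were at least 2-fold higher. None of the 49 was 2-fold lower, beside 5.25% of all genes at least 2-fold higher and 3.03% lower. The count of higher genes among the 49 moved with the scaling together with that of all genes. It was 31 with scaling to the median, beside 38.8% of all genes, 25 without scaling, beside 31.8%, and 0 with spike-in scaling, beside 2.58%. The 2-fold calls also depended on the processing. With normexp background correction only 2 genes were past 2-fold, MAFF and SLC3A2, and SQSTM1 (0.97), ME1 (0.91) and BACH2 (0.61) were not. Scaling to the median likewise left 2 and no scaling left 1. With quantile normalization ME1 was at 0.997, although the count there was again 5. It was 6 with scaling to the 75th percentile of the spots well above background on both arrays. With the dimmest probe of each gene 7 were past 2-fold, among them ALDH3A1 and CUL3. The CUL3 probe was well above background on the HTE array only. GGT1 and AKR1C2 had no probe matched by name.

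The ratios of the 9 genes depend on a common shift between the arrays, whereas the differences between their ratios do not. With 7 ways of scaling the arrays, correcting the background or treating outlier spots that leave out the spike-in RNA, the log2 ratio ran from 0.88 to 1.07 for TXNRD1, from 0.33 to 0.52 for AKR1B10, from 0.27 to 0.46 for SRXN1, from 0.12 to 0.32 for GCLC and from 0.10 to 0.29 for HMOX1. It ran from -0.47 to -0.26 for NFE2L2, from -0.41 to -0.22 for GCLM and from -0.37 to -0.18 for KEAP1. These 8 genes kept their sign in all 7, and NQO1 did not (-0.15 to 0.05). The E1A spike-in RNA was brighter on the HTE array, by 0.44 to 1.56 log2 units over the 8 spike-in probes well above background on both arrays, and scaling to its median made all 9 genes lower, from -0.32 for TXNRD1 to -1.66 for NFE2L2. Why the spike-in probes differed between the arrays was not tested. Under any common factor TXNRD1 stayed 0.84 above its paralog TXNRD2, HMOX1 0.47 above KEAP1, HMOX1 0.20 above HMOX2, AKR1B10 0.15 above AKR1B1, and NFE2L2 0.35 below NFE2L1.

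**Figure D5:**
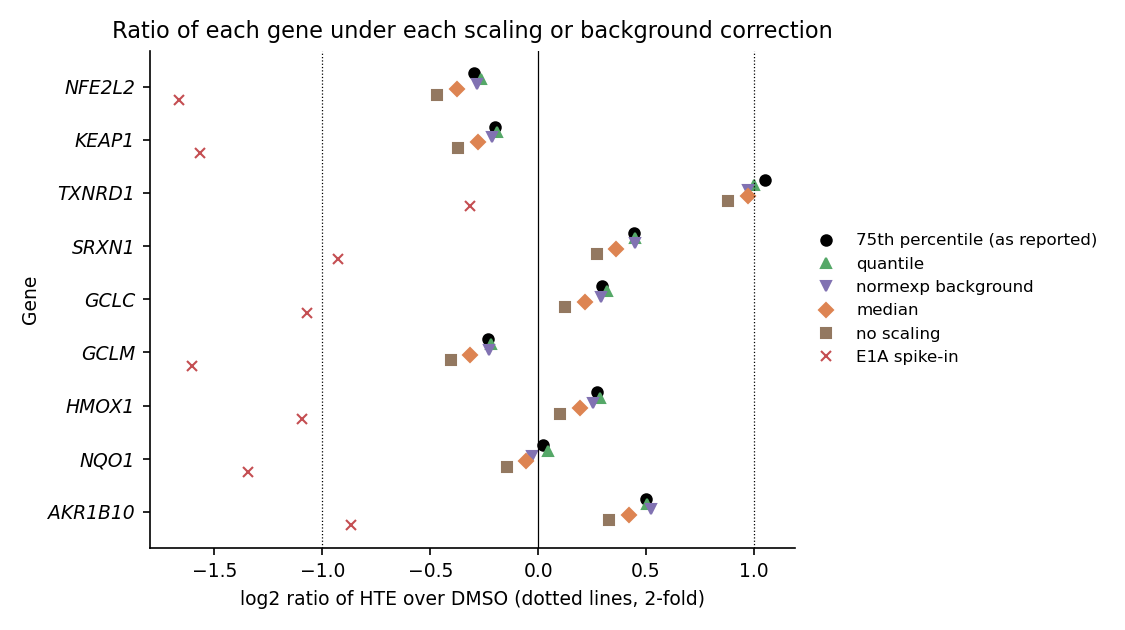
Log2 ratio of HTE over DMSO (x axis) of each of the 9 genes under 6 ways of scaling the arrays or correcting the background, with dotted lines at 2-fold. The marks of a gene lie close together except for spike-in scaling, which moves all 9 genes below 0, and the mark of NQO1 crosses 0.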

How the data were processed

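Total RNA of HepG2 cells was profiled on Agilent SurePrint G3 human arrays, 1 per condition. The authors deposited the intensity values of each spot as Agilent Feature Extraction wrote them, background-subtracted and detrended but not scaled between arrays. The software version is 11.5.1.1 per the file headers and 10.7 per the submitters' processing notes, and the array design is on hg19. Both arrays lay on 1 slide and were scanned together.

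Here, control and outlier spots were left out, each array was scaled to the 75th percentile of its log2 signals, controls not counted, and replicate spots were combined by their mean. A probe was used if the software called at least 0.5 of its spots well above background on either array (29680 of 50599). For a probe dim on 1 array, a signal below the lowest one well above background there was raised to it, which gives a bound. A dim signal above that lowest one was kept, so such a ratio is not a bound. Probes were named by looking up their transcript in a RefSeq table (GRCh38.p14, 28174 probes matched), and the brightest probe stood for a gene. A 2-fold change follows the study. With 1 array per condition, no p value is given.

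The 9 genes and the gene lists were chosen with earlier results of these data known. The genes named are the 9 genes, their paralogs, and in each role the highest, the lowest and those past 2-fold, plus MAFG, MAFK, BACH1, CUL3, RBX1, SLC7A11, GSR, ALDH3A1 and TXN, added after their values had been seen. Of the genes in the lists, 1 is counted but not reported here. As alternatives, 12 other settings of scaling, background, filters and probes, and cutoffs of 1.5-fold and 3-fold, were tried. The normexp correction (offset 50) used the median spot signal, since the files give no mean. Spike-in scaling used the median difference over E1A probes. Signals simulated with known ratios were used to check the steps. The software was limma 3.58.1 in R 4.3.3, and numpy 2.4.6, pandas 2.3.3 and matplotlib 3.10.9 in Python 3.11.15.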

Additional observations from a re-analysis of the deposited data

How the results depend on the processing

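With 1 array per condition no replicate could be left out, and the number of arrays limits every value. No paired analysis was possible because each condition has a single array. The median log2 ratio of the 9 genes was 0.19 with scaling to the median, 0.10 without scaling and -1.10 with spike-in scaling, and that of the other pathway genes was 0.10, 0.012 and -1.18 in the same order, 0.12 with quantile normalization and 0.28 with the dimmest probe of each gene. No member was past 2-fold with normexp background correction, quantile normalization, scaling to the median, without scaling or at a cutoff of 3-fold (0 in each, against 1), and 6 were past it, all lower, with spike-in scaling, under which 0 members were higher. Spike-in scaling moved the median over all genes by -1.36 and turned the sign of TXNRD1 (-0.32), MAFF (-0.0060), SQSTM1 (-0.32), SLC3A2 (-0.26) and ME1 (-0.30). Leaving the arrays unscaled moved that median by -0.16, and keeping all dim probes moved it by 0.21. Apart from the common shifts, the causes of these changes were not tested.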
